A study of Mus musculus with 9 samples.

Results

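The hair germ is the small epithelial cluster that sits between the bulge and the dermal papilla of a resting mouse hair follicle. Its course through the resting phase was read from the 3 hair germ arrays of a series of 9, chosen by their labels, with 1 array on each of postnatal days 43, 56 and 69 (P43, P56 and P69), which the labels call early, middle and late telogen. The arrays held RNA of cells sorted from back skin of virgin CD1 female mice of the genotype Lef1RFP/K14H2BGFP. All 9 arrays share both reporters, a red one named for Lef1 and a green histone fusion named for keratin 14. Hair germ cells were red negative, green positive, CD34 negative and high in P-cadherin. Bulge cells, from the same trypsin suspension, were red negative, green positive, CD34 positive and low in P-cadherin. Dermal papilla cells, from a collagenase suspension, were red and not green, and lacked CD45, CD117, CD34 and integrin alpha 7. The number of mice behind an array and the use of shared mice across populations are not given in the sources used here. RNA was amplified in 2 rounds from a small input.

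Telogen is the phase in which the follicle makes no hair. Bulge and hair germ both hold stem cells, and the hair germ, which touches the papilla, is the first epithelial compartment to divide when a new growth phase starts. BMP signals are known for holding these cells at rest, and WNT signals, FGFs and BMP antagonists for releasing them. Proliferation, interferon and stress responses, and the metabolic response to hormones are the usual programmes by which such sorted cells differ from day to day.

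Genes were sorted into classes by fold on the scale log2(signal + 16), where 16 damps the noise of dim probe sets and makes changes of low genes look smaller than they are. A gene was called rising when its signal did not fall at either step and stood at least 2-fold higher on P69 than on P43, and falling in the mirror case. A P56 peak lay at least 2-fold above both other days, and a P56 dip at least 2-fold below both. The brighter array of the pair compared also had to exceed its own median. With 1 array per day these classes describe 3 arrays and carry no test, and a difference between days cannot be told apart from one between the arrays.

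Keratinocyte genes were bright on all 3 hair germ arrays. Krt5, a basal keratin, gave signals of 8261, 7998 and 10020 on P43, P56 and P69, and Krt15, a follicle stem cell keratin, gave 10020, 7810 and 8566. Cd34, the surface marker the sort selected against, read 0.78, 36.7 and 3.90 there, and from 3098 to 3464 in bulge. The probe set for Cdh3, which encodes P-cadherin, lay below the median in all 9 arrays and checked nothing. Summed signals of 17 dermal papilla markers were 552, 1291 and 738 in hair germ against at least 33563 in dermal papilla, and Inhba, Corin and Fgf10 were under 20 on each day in hair germ. The 9 melanocyte genes summed to 2720, 5150 and 2345, the 27 leukocyte genes to 1937, 1702 and 2394, and the 13 fibroblast genes to 1191, 1281 and 695. Far larger was the sum of 17 epidermal differentiation genes, at 17012, 16416 and 42149. Among these Krt10, a suprabasal keratin, was above Krt5 on each day, at 10640, 8552 and 21360.

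The ratios of control probe sets differed between the days in hair germ. The ratio of the 3' to the 5' Gapdh control probe set, which grows as transcripts are shortened, was 8.34 on P43, 2.97 on P56 and 7.90 on P69, and that of beta-actin was 17.7, 3.79 and 16.3. By these ratios P56 stood apart from P43 and P69. The ratio of the 3' to the middle probe set was 2.22, 1.65 and 2.38 for Gapdh and 3.99, 2.35 and 6.78 for beta-actin, lowest on P56 and, for beta-actin, higher on P69 than on P43. In dermal papilla P43 was the array with high ratios, at 6.62 and 13.5 against at most 4.13 and 4.32 on the later days, and in bulge the ratios stayed between 3.96 and 6.6. The P69 hair germ array also stood apart in brightness, with a mean signal of 345 against 279 and 269, and 18.3% of its signal in its brightest 100 probe sets against 14.0% and 12.5%. Pearson's r across 7796 genes, which are not independent, was 0.934 for P43 with P56, 0.923 for P43 with P69 and 0.920 for P56 with P69.

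**Figure D1:**
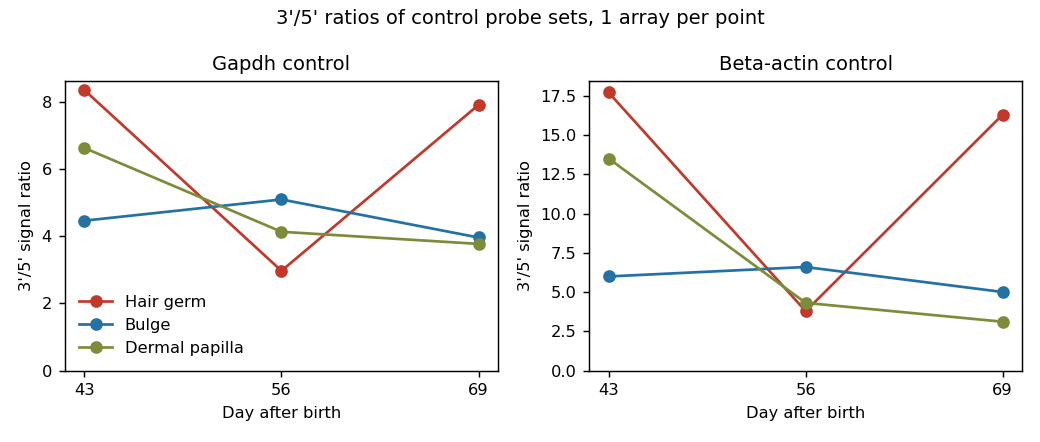
Ratio of the 3' to the 5' control probe set (y axis, linear) by day after birth (x axis) for Gapdh and beta-actin, 1 array per point, lines joining arrays of a population. Hair germ was high on P43 and P69 and low on P56, while dermal papilla was high on P43 alone.

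The genes Mki67, Pdk4 and Rsad2 stand for 3 different courses. Mki67, a proliferation antigen, gave hair germ signals of 3216, 1129 and 1651. It was highest on P43, lowest on P56 and 1.94-fold lower on P69 than on P43, so it missed both the falling class and the dip class. Bulge signals of Mki67 were 116, 68.2 and 91.6, all far below those of hair germ. Pdk4, a kinase that turns glucose oxidation down in favour of fat, gave 9.35, 41.5 and 472 in hair germ, each day above the one before, for a 19.3-fold difference between P69 and P43. In bulge and dermal papilla Pdk4 did not exceed 28.4. Rsad2, an antiviral interferon target, gave 871, 15.5 and 198 with its brightest probe set and 263, 1.25 and 152 with another, so P56 was lowest with both. A further, dim probe set gave 41.6, 19.4 and 23.4, with P69 only 0.15 log2 units above P56. In bulge and dermal papilla the brightest Rsad2 probe set lay between 15.7 and 26.5. Pdk4 and Rsad2 did not enter the classes, since neither exceeded the median in 3 of 9 arrays. With a filter that asks for 1 hair germ array above its median, Pdk4 was 1 of 573 rising genes (7.47% of 7671) and Rsad2 1 of 97 P56 dips (1.26%).

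**Figure D2:**
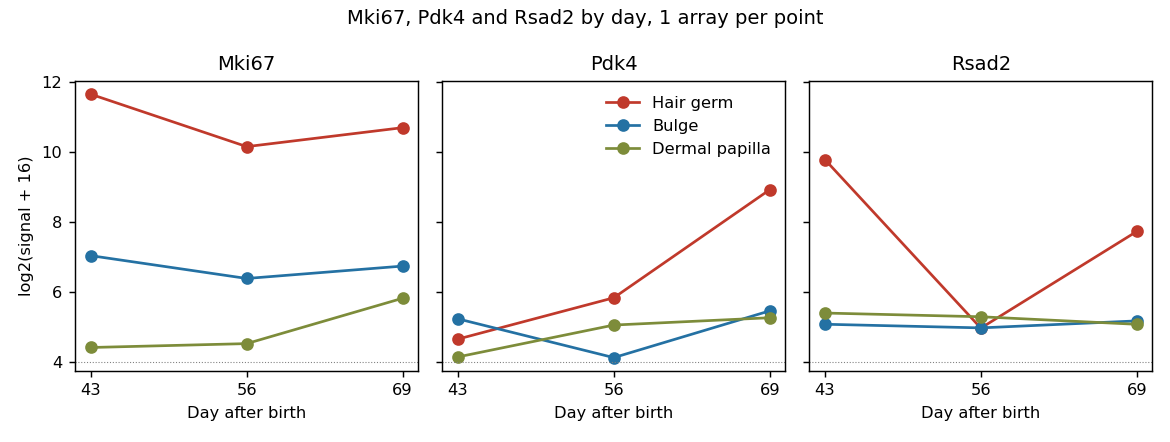
Levels of Mki67, Pdk4 and Rsad2 as log2(signal + 16) (y axis) by day after birth (x axis) in hair germ, bulge and dermal papilla, 1 array per point; the dotted line is a signal of 0. Mki67 was lowest on P56, Pdk4 was higher on each later day and Rsad2 on P56 lay at the level of the other populations.

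Of 7796 genes, 471 were rising (6.04%), 226 falling (2.9%), 128 P56 peaks (1.64%) and 73 P56 dips (0.936%). Another 894 spanned 2-fold in some other way, 165 did so while dim, and 5839 stayed within 2-fold. The balance of rising and falling depended on scaling: rising genes made up 67.6% of both classes as deposited, 45.1% after quantile normalization (296 and 360 genes) and 26.0% after median centring (195 and 556). The median of all genes on P69 minus P43 was 0.13 log2 units as deposited, -0.02 with quantile normalization and -0.15 with median centring. Bulge had 75 rising, 67 falling, 5 peak and 17 dip genes, and dermal papilla 356, 138, 32 and 39.

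**Figure D3:**
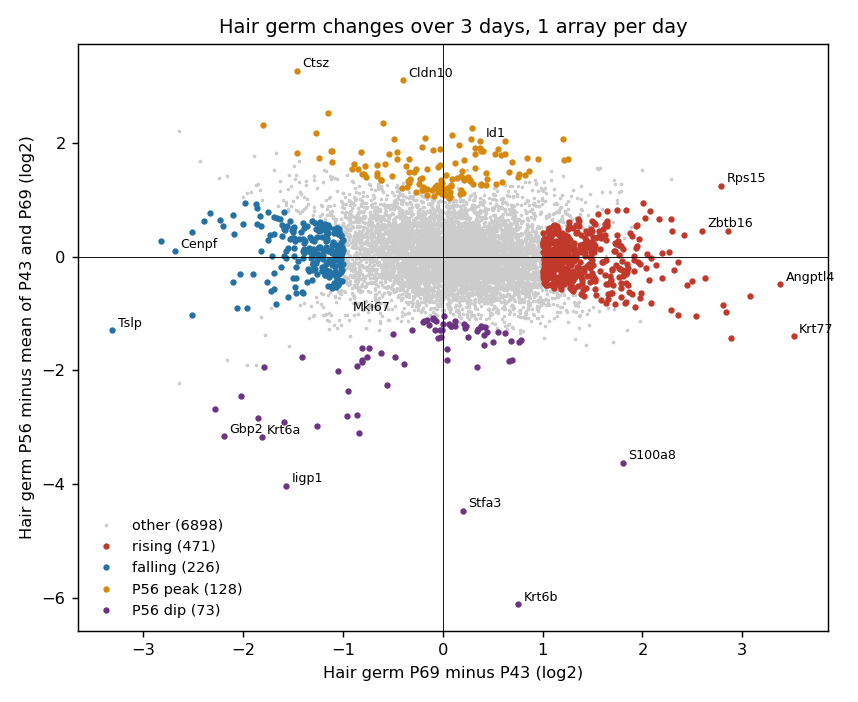
Each point is 1 of 7796 genes in hair germ, with P69 minus P43 on the x axis and P56 minus the mean of P43 and P69 on the y axis, both in log2 units, and classes in colour. P56 dips reach further from 0 than P56 peaks, with Krt6b lowest at -6.12 and Ctsz highest at 3.28.

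Among rising genes the late step was the larger one in 265 and the early step in 206, and among falling genes in 146 and 80. Only 5 rising and 2 falling genes moved 2-fold at both steps. A gene could thus be rising with nearly level signals over 2 of the days.

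The rising genes with the largest differences were of several kinds. Krt77, a suprabasal keratin, gave 434, 561 and 5129, an 11.4-fold difference that lay almost wholly between P56 and P69. Krtdap, another gene of differentiating keratinocytes, gave 1219, 2033 and 6707. Angptl4, a lipase inhibitor induced by fasting, gave 60.9, 161 and 786. It also varied in bulge (119, 18.1 and 688) and in dermal papilla (264, 1065 and 355), where the order of days differed. Fabp4, a fatty acid carrier of adipocytes and capillaries, gave 6.57, 67.4 and 147, and was the only rising gene that was also at least 2-fold higher on P69 than on P43 in both bulge (1.35 and 20.5) and dermal papilla (212 and 957). Summed endothelial markers were 97.0, 187 and 323 in hair germ, where only 1 of the 12 exceeded the median on any array. Among them Esam gave 4.42, 19.9 and 98.9, and Eng 21.5, 14.1 and 14.8. The part of such cells was not tested. Rgcc, a regulator of the cell cycle, gave 933, 1375 and 6605. Zbtb16, a transcription factor induced by glucocorticoids, gave 37.9, 166 and 310. Tesc, a calcium-binding protein, gave 95.8, 96.4 and 811, level on the first days. Fermt3, an integrin activator, gave 15.5, 26.7 and 209. Mboat2, an acyltransferase, gave 46.9, 104 and 374. Rps15, a ribosomal protein gene, gave 845, 5371 and 5941, with the difference at the early step. Map3k12, a kinase, gave 148, 278 and 1369, but its other 2 probe sets differed by only 0.26 and 0.43 log2 units against 3.08.

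The falling genes were led by Tslp, a cytokine that keratinocytes release under stress, at 851, 96.0 and 71.5, with the larger difference at the early step. Thy1, a surface glycoprotein, gave 916, 175 and 148 in the same shape. Synpo, an actin organiser, gave 283, 120 and 26.3, and Cenpf, a kinetochore protein, 829, 340 and 116, both lower at each step. Nkain1, B3gnt8, Gjc1, Rpa2, Tada1 and Tmem192 were lower mainly between P56 and P69, with P69 signals from 1.43 to 65.8. Rpa2 encodes a subunit of the complex that coats single-stranded DNA, and Gjc1 a gap junction protein.

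Of genes with several kept probe sets, the others all had the same sign as the brightest in 131 of 165 rising, 37 of 57 falling, 35 of 38 peak and 19 of 24 dip genes. Another probe set fell in the same class in 51, 15, 16 and 5 of these genes, so agreement in sign was lowest for falling genes and agreement in class lowest for dips. Probe sets of a named gene could disagree in size or sign. For P69 minus P43, examples beside Map3k12 were Txnip (2.29 and 0.31 log2 units), Cdkn1b (2.53 and 0.39), Fgfr1 (2.01 and 0.07), Me1 (1.93 and 0.56), Atf4 (1.53 and 0.58) and Rbl1 (-1.40 and 0.32). One of several other probe sets gave -0.02 against 1.06 for Ndrg1, 0.08 against 1.32 for Rps24 and 2.11 against 0.29 for Celf2. For the P56 deviation, which is P56 minus the mean of P43 and P69, examples were Fen1 (-1.76 and 0.73), Rps9 (1.35 and, with 1 of 2 others, -0.46), Ddx21 (-1.20 and -0.14) and Stard4 (1.38 and 0.21).

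The class counts of this and the following lists stand beside 6.04% rising, 2.9% falling, 1.64% P56 peaks and 0.936% P56 dips over all genes. In short lists such counts are of few members. Dividing cells leave their mark in the mitosis genes, of which 36 of 42 were measured. Of these 6 were falling, 3 were P56 dips and none was rising or a peak, and 3 of 36 were higher on P69 than on P43, against 4530 of 7796 over all genes. Their median was -0.85 log2 units for P69 minus P43 and -0.52 for the P56 deviation, against 0.13 and 0.02 over all genes. Cdc20, an activator of the anaphase complex, gave 2875, 604 and 1636, and Kif2c, a motor that takes microtubules apart, gave 634, 132 and 369. Both were lowest on P56. Ccnb2, a cyclin of mitosis, gave 575, 193 and 122, and like Cenpf was lower at each step. The 27 measured DNA replication genes had a median of -0.97 for P69 minus P43, with 6 falling and 1 dip. Pole, a replicative polymerase, gave 456, 254 and 117. Chaf1b, a chromatin assembly factor, gave 153, 74.1 and 58.4. In bulge the mitosis median was -0.14, and in dermal papilla 0.36. Of 15 measured inhibitors of cyclin-dependent kinases, their relatives and D-type cyclins, 3 were rising, 1 was falling and 1 was a dip. Btg1, an antiproliferative gene, gave 1807, 2904 and 6164, and Cdkn2b gave 91.6, 118 and 249. Cdkn1b gave 180, 212 and 1118 with its brightest probe set. Rbl1, a relative of the retinoblastoma protein, was falling (487, 184 and 175), and Cdkn2c was a dip (272, 102 and 270).

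Promoters of mitosis genes are known to carry a cell cycle homology region and CCAAT boxes, which is why 4 of them are shown, in the 80 bases nearest to a match and wholly before the start. They are from RefSeq, build GRCm38.p6, read along the gene, with each TTTGAA or TTCGAA, on either strand, in capitals.
Mki67, chr7:135716435-135716514, minus strand: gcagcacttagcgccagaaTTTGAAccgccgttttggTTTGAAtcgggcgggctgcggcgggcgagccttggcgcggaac
Cdc20, chr4:118437344-118437423, minus strand: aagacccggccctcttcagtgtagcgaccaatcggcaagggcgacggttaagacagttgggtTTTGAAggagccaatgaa
Ccnb2, chr9:70421679-70421758, minus strand: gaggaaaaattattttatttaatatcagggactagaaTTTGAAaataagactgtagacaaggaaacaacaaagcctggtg
Kif2c, chr4:117178833-117178912, minus strand: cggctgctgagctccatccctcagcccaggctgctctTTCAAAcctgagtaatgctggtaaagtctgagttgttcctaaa
Of 36 mitosis genes with a promoter in the table, 28 held such a match within 250 bases before and 50 after a start (77.8%), against 21.7% of all 27025 genes. A CCAAT on either strand was found in 29 (80.6%) against 41.1%. DNA replication genes held the first match in 5 of 30 (16.7%). A match is a description of letters and not of binding.

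Interferon response genes had the lowest median P56 deviation of the 25 process lists as deposited. Of 47 listed genes 23 were measured, of which 8 were P56 dips, 2 falling and 1 rising. Their median P56 deviation was -1.02 log2 units and their median P69 minus P43 -0.93, and 22 of 23 had a P56 deviation below 0, against 3748 of 7796 over all genes. Iigp1, an interferon-inducible GTPase, gave 2277, 65.2 and 758. Gbp2, a guanylate-binding protein, gave 1322, 53.9 and 277. Igtp, another GTPase, gave 1225, 74.8 and 328. Cxcl10, a chemokine that draws T cells, gave 460, 17.5 and 81.8. In each, P43 was highest, P56 lowest and P69 between. The antiviral genes Mx1 (208, 8.22 and 108), Oasl2 (396, 15.8 and 121) and Rtp4 (458, 32.8 and 228) and the interferon target Ifi27l2a (525, 31.0 and 286) had the same order. In bulge Iigp1 lay between 30.1 and 64.3, Gbp2 between 20.4 and 54.3 and Cxcl10 between 22.8 and 52.3. Igtp lay between 233 and 292 there, above its P56 level in hair germ. Medians in bulge and dermal papilla were -0.28 and 0.17 for the P56 deviation. Summed leukocyte markers stood at 1937, 1702 and 2394, highest on P69 and lowest on P56, and 11 of the 27 exceeded the median on a hair germ array. The list includes Epcam, which gave 642, 354 and 520 in hair germ and from 886 to 1415 in bulge. The low of the sum on P56 depended on Epcam. P56 was also the array of low 3'/5' ratio, whose part in these dips was not tested.

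The interferon-stimulated response element is the sequence through which such genes are switched on, so 4 members that were low on P56 are shown, with each GAAA, any 2 bases, GAAA on either strand (letters GAAANNGAAA) in capitals, from the same table and build and all before the start.
Gbp2, chr3:142620569-142620648, plus strand: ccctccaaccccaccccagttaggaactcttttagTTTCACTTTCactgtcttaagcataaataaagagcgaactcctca
Igtp, chr11:58199476-58199555, plus strand: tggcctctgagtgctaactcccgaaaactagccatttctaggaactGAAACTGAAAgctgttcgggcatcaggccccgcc
Cxcl10, chr5:92349058-92349137, minus strand: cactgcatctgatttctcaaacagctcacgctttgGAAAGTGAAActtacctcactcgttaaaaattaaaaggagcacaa
Rsad2, chr12:26456528-26456607, minus strand: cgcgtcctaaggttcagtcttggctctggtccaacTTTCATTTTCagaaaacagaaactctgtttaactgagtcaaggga
Of 35 interferon response genes with a promoter in the table, 17 held the element (48.6%), against 3.99% of all 27025 genes. It was also in 9 of 52 P56 dips with a promoter (17.3%), against 3.63% of the 6359 measured genes with one, 5.28% of rising and 2.81% of falling genes. Of the 9, Cxcl10, Gbp2 and Igtp belong to the interferon list.

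The other P56 dips were led by the keratins Krt6b and Krt6a and by Stfa3, S100a8 and Chil1. Krt6b, a keratin of the outer sheath and of wounds, gave 2706, 35 and 4586, the deepest dip of all. Stfa3, a cysteine protease inhibitor, gave 3310, 145 and 3806. S100a8, a calcium-binding alarm protein of keratinocytes and neutrophils, gave 263, 26.0 and 958. Krt6a gave 4623, 257 and 1304 in hair germ while bulge stayed between 4105 and 4190. Chil1, a chitinase-like protein, gave 255, 6.27 and 97.1. Of 11 measured genes in the list of wound and outer sheath keratins, 5 were dips, and none was rising, falling or a peak, with a median P56 deviation of -0.98. Less the median of all genes this was -1.01, and -0.40 with a pseudocount of 64. Unlike the interferon genes, Krt6b, Stfa3 and S100a8 were at or above their P43 level on P69.

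**Figure D4:**
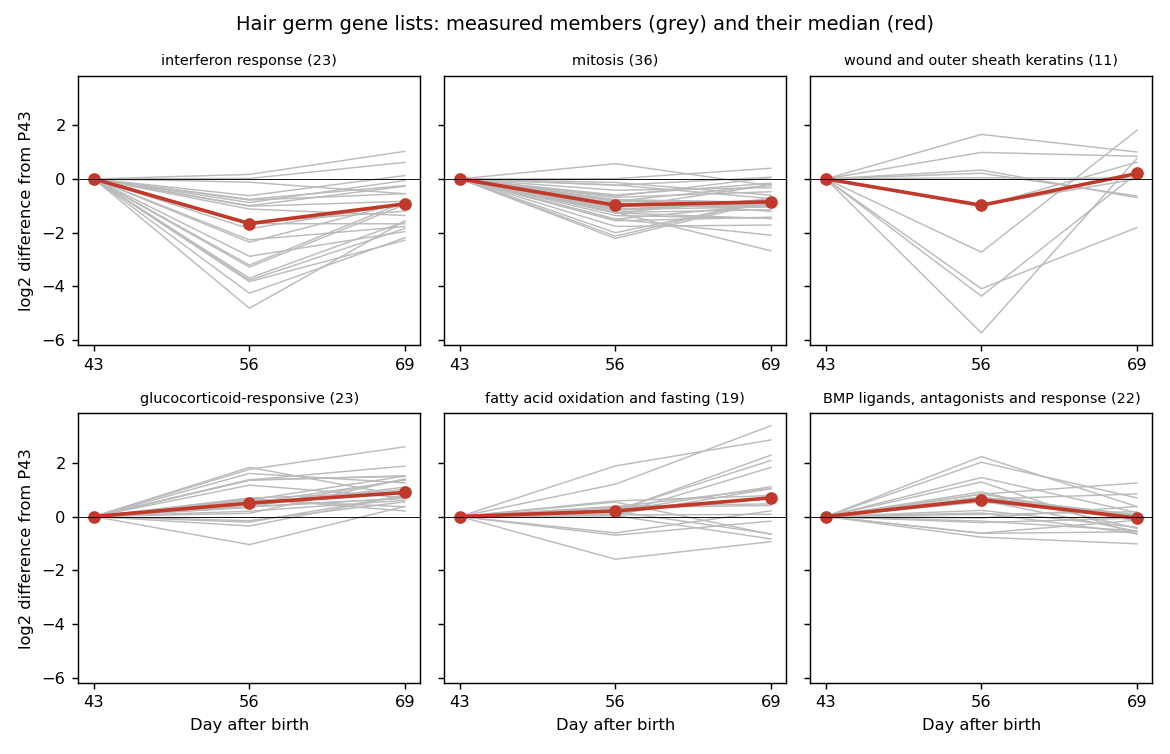
Members of 6 gene lists in hair germ (grey lines) and their median (red), as log2 difference from P43 (y axis) by day after birth (x axis); numbers in brackets are measured members. The median drops furthest on P56 for interferon response and stays low on P69 for mitosis, and glucocorticoid-responsive members all end above 0.

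P56 peaks ran the other way and were shallower. Cldn10, a tight junction protein, gave 35.7, 372 and 23.3, and Ctsz, a lysosomal protease, 30.1, 253 and 0.70. Bach2, a transcriptional repressor, gave 122, 560 and 75.3. Fn1, the matrix protein fibronectin, gave 415, 1774 and 465. Armcx2 gave 221, 896 and 90.4. Celf2 (4.18, 91.9 and 8.74), Adcy7 (116, 593 and 144) and Fcgrt (30.2, 154 and 29.3) encode an RNA-binding protein, an adenylyl cyclase and an antibody receptor. Col1a2, a collagen chain, gave 78.1, 412 and 84.3 in hair germ and from 3438 to 5506 in dermal papilla. Myl9, a myosin light chain of contractile cells, gave 18.0, 120 and 14.0.

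Several peaks were signalling genes. Of 22 measured BMP ligands, antagonists and response genes 4 were peaks, 1 rising and 1 falling, with a median P56 deviation of 0.50. The BMP target Id1 gave 138, 708 and 183, and Id3 gave 326, 918 and 361. Fstl1, a secreted BMP-binding protein, gave 29.7, 169 and 57.9, and Msx2, a BMP-induced homeobox gene, 60.6, 171 and 32.5. In bulge Id3 stayed between 1447 and 1723 and Id1 between 298 and 534. Sostdc1, a BMP and WNT antagonist, was falling at 1935, 1128 and 949. Of 26 measured WNT genes Lgr5, a receptor for R-spondins, gave 175, 790 and 259, and Wif1, a WNT inhibitor made by the papilla, 72.5, 382 and 114. Lgr6 was rising (19.9, 55.0 and 86.5) and Wnt7b falling (177, 166 and 78.0). Gli1, a hedgehog target, gave 28.5, 184 and 63.8. The pigment gene Tyrp1 gave 320, 882 and 263, and Dct, which missed the class, 1369, 2519 and 1060.

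These peaks coincided with the array of low 3'/5' ratio and with the highest summed melanocyte and dermal papilla markers. Summed fibroblast, muscle and pericyte, Schwann and Merkel cell markers were also highest on P56 in hair germ. Endothelial, adipocyte and leukocyte sums were highest on P69, and sebaceous and erythrocyte sums on P43. The part of the ratio and of such cells in the peaks was not tested. Dermal papilla has the ratios in another order of days. Its levels did not set the classes, but its arrays counted in the filter that let genes in, so the comparison is not independent of them, and day and ratio cannot be told apart there. There the mean of P56 and P69 exceeded P43, the array of high ratios, at least 2-fold in 4.45% of all genes and in 23 of the 128 hair germ peaks (18.0%), with a median of 0.40 log2 units against 0.05. With median centring these medians were 0.16 and -0.06. Among the 73 hair germ dips it was at least 2-fold upward in 6 (8.22%) and downward in 6 (8.22%), against 4.45% and 1.69% of all genes, with a median of -0.02. Falling genes had a median of 0.22 and rising genes of -0.09. Genes at least 2-fold higher in dermal papilla than in bulge on every day made up 8.63% of all genes and 30 of the 128 peaks (23.4%). The reverse, at least 2-fold lower on every day, held for 780 of all 7796 genes and 21 of the 128 peaks (16.4%). Both groups thus had a larger share among the peaks than among all genes.

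**Figure D5:**
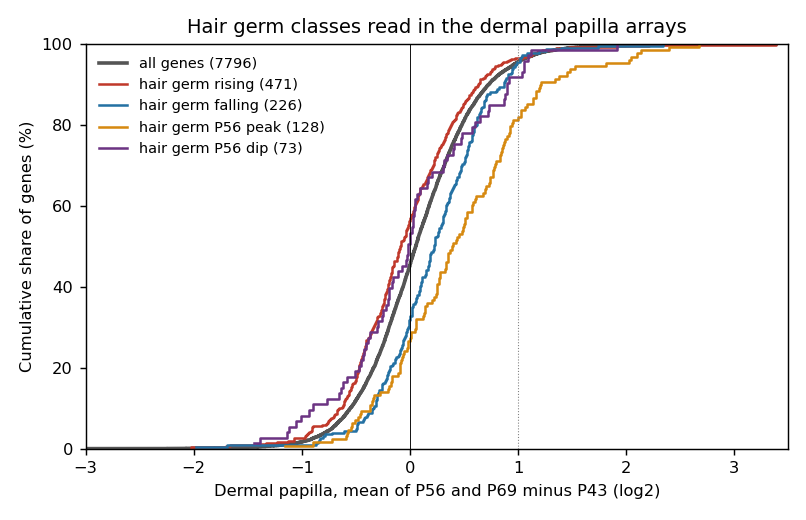
Cumulative share of genes (y axis, percent) by their dermal papilla difference, the mean of P56 and P69 minus P43 in log2 units (x axis), for all 7796 genes and for each hair germ class; the dotted line marks 2-fold. The curve of hair germ P56 peaks lies to the right of all genes, with 18.0% beyond 2-fold against 4.45%, and that of dips is wider than all genes at both ends, with 8.22% beyond 2-fold on each side.

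Glucocorticoid-responsive genes were higher on P69 as a group. Of 23 measured, 10 were rising, 1 a peak and 1 a dip, none was falling, and all 23 were higher on P69 than on P43, against 4530 of 7796 over all genes as deposited. Their median was 0.90 log2 units against 0.13. Per1, which belongs to both the clock and this list, gave 156, 427 and 618. Irs2, an insulin receptor substrate, gave 15.9, 65.3 and 75.4, and Pik3r1, a regulatory subunit of PI3 kinase, peaked at 603 from 158 and 279. Medians of the same genes were 0.66 in bulge and 0.54 in dermal papilla, so the group was higher on P69 in each population. Of 16 measured clock genes 5 were rising, among them Nr1d2 (388, 651 and 1066), Npas2 (24.5, 35.8 and 112) and Cry1 (104, 107 and 297), but the median was only 0.29, and 0.49 in bulge and 0.33 in dermal papilla. The hour of collection is not given in the sources used here.

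Genes of fatty acid oxidation and fasting included 8 rising members of 19 and none in another class, with a median of 0.70. Txnip, an inhibitor of glucose uptake, gave 1482, 1711 and 7286 with its brightest probe set, and 1758, 1463 and 5698 in bulge. Acot1, an acyl-CoA thioesterase, gave 233, 277 and 1042. Medians in bulge and dermal papilla were 0.48 and 0.09. Of 15 fatty acid synthesis genes Me1 (104, 243 and 442) and Dgat2 (164, 228 and 411) were rising and the desaturase Fads1 (81.3, 300 and 116) was a peak. Of 18 hypoxia and glycolysis genes the enzymes Tpi1 (1274, 997 and 505), Pkm (949, 854 and 383) and Hk2 (337, 195 and 160) were falling and Ndrg1 was rising (687, 1005 and 1453). Of 19 cholesterol synthesis genes Ebp was falling (460, 279 and 144) and Stard4, a sterol carrier, was a peak (111, 369 and 156).

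By their median, growth factor feedback genes were higher mostly by P56, at 0.79 log2 units for P56 minus P43 and 0.17 for P69 minus P56. Their summed signal over 24 genes, 8166, 9729 and 14826, was higher mainly on P69. Of 17 measured FGF receptors and MAPK feedback genes 5 were rising and 1 a peak, with a median of 0.80 for P69 minus P43, and 16 of 17 were higher on P69 than on P43, against 4530 of 7796 over all genes. Spry2, an FGF antagonist, gave 220, 464 and 983, Errfi1, an inhibitor of the EGF receptor, 1956, 2128 and 5189, and Fgfr1 65.9, 303 and 314. Errfi1 was also highest on P69 in bulge (348, 403 and 2100) and in dermal papilla (2767, 2355 and 4917). Phlda1 was a peak at 817 from 236 and 298. Medians in bulge and dermal papilla were 0.26 and 0.28. Immediate early genes, which also answer to tissue dissociation, had 1 rising member of 26, Ier2 (1480, 3159 and 3199), a share below the 6.04% of all genes. Their median was 0.67, and less that of all genes it was 0.54 as deposited and 0.21 after quantile normalization. Of 19 TGF-beta and activin genes only Ltbp2, a latency protein, was in a class (34.4, 108 and 137).

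Differentiation markers of the epidermis summed to 17012, 16416 and 42149 over 17 genes, against at most 8823 in bulge. Krt10, a suprabasal keratin, gave 10640, 8552 and 21360. Of 10 measured, 4 were rising and the other 6 spanned 2-fold in another way. The part of differentiated epidermal cells in the sort, also for Krt77 and Krtdap, was not tested. Hair lineage genes had 3 rising members of 11, among them Tchh (41.3, 46.6 and 109) and Krt81 (50.6, 73.8 and 126), and 2 peaks, among them Hoxc13 (69.1, 175 and 67.5).

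Genes of protein synthesis and energy split. Of 41 ribosomal protein genes 8 were rising, 1 was a peak and 1 a dip, with a median of 0.62. Less the median of all genes this was 0.50 as deposited and 0.06 after quantile normalization. Rpl11 gave 1950, 4563 and 5059 and Rps24 3727, 6320 and 9313, while Rps9 was a peak (1733, 4786 and 2005). Many of these genes have near-identical pseudogenes, so their probe sets are uncertain. The 28 ribosome biogenesis genes had a median of -0.56, with Rrs1 falling (499, 398 and 155) and the helicase Ddx21 a dip (370, 144 and 335). Of 47 oxidative phosphorylation genes 4 were falling and none was rising, with a median of -0.12; Ndufa9 gave 876, 671 and 236 and Ndufb3 1136, 609 and 437. The heat shock and unfolded protein list had 3 rising members, 3 falling and 1 dip of 28. Atf4, a stress transcription factor, gave 1490, 1932 and 4317, Pdia4, a folding enzyme of the endoplasmic reticulum, 126, 21.1 and 17.9, and Manf 625, 394 and 242. Of 15 oxidative stress and metallothionein genes 1 was a peak, with a median of 0.38. Of 32 spliceosome genes 3 were rising, among them Clk1 (1039, 1742 and 2498), and 1 was falling, Hnrnpm (959, 693 and 448), against 6.04% and 2.9% of all genes.

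Whether hair germ changed otherwise than the other populations was tested with limma on all 9 arrays, comparing its day differences with the mean of those in bulge and dermal papilla. The spread behind this test is how far bulge and dermal papilla differ about a day, with 2 residual degrees of freedom, and hair germ arrays are taken to vary likewise. For P69 minus P43, 0 of 7796 genes passed an adjusted p of 0.05 (0.0%), and 1205 had an unadjusted p below 0.05 (limma). The smallest p values belonged to Krt77, higher in hair germ by 3.72 ± 0.51 (SE) log2 units, Fermt3 (3.78 ± 0.60), Krtdap (2.85 ± 0.45), Rps15 (2.45 ± 0.39) and St6gal1, a sialyltransferase, at -2.91 ± 0.45, each with a limma adjusted p of 0.136. Over the alternatives run, the highest limma adjusted p of Krt77 was 0.24. Its lowest came from a fit without a P69 array of bulge or dermal papilla. St6gal1 gave 123, 242 and 6.16 in hair germ and was of no class.

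For the P56 deviation 3 genes passed (0.0385%), with 650 at an unadjusted p below 0.05. Iigp1 was lower in hair germ by a log2 of -3.52 ± 0.39 (limma adjusted p = 0.0308), Stfa3 by -4.99 ± 0.65 (limma adjusted p = 0.0445), and Ctsz was higher by 3.60 ± 0.47 (limma adjusted p = 0.0445). The deviation of Iigp1 was -4.04 in hair germ, -0.59 in bulge and -0.44 in dermal papilla. That of Ctsz in hair germ was 3.277 with the probe set used, whose P69 signal was 0.70. Other Ctsz probe sets gave 1.769 and 1.785. Krt6a (-3.12 ± 0.43) and S100a8 (-3.28 ± 0.47) followed, each with a limma adjusted p of 0.0527. Over the alternatives run, the highest adjusted p of Iigp1, Stfa3 and Ctsz was 0.197 for each. The counts rested on single arrays. With Bulge P69 or Dermal Papilla P69 left out, these populations could no longer differ about P69 in the fit. The spread then came from P43 and P56 alone, and far more genes passed for both contrasts. Such counts cannot be compared with those of the full fit. Without Bulge P43, Dermal Papilla P43 or Dermal Papilla P56 the P56 deviation had 0 calls (limma).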

How the data were processed

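Affymetrix arrays were hybridised with amplified RNA of 3 sorted mouse skin populations on 3 days each, 1 array per population and day. The authors deposited MAS5 signals, an intensity per probe set and not a log value; GCOS and MAS5 are named in the submitters' processing notes. Versions and scaling target are not given in the sources used here. Arrays have no count depth, and their number limits the precision.

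From these, log2(signal + 16) of the deposited values was taken with no scaling between arrays. Kept were probe sets that exceeded the median of the array in 3 or more of the 9 (12801 of 22690, 64 controls set aside), and a gene was its brightest kept probe set (7796 genes). Of all probe sets 20393 named 1 gene in the platform annotation, 691 several and 1555 none, and 20364 were matched to RefSeq. The interaction of hair germ with day was fitted with limma 3.58.1 in R 4.3.3 (eBayes with trend, 7 coefficients, 2 residual degrees of freedom) and adjusted by the Benjamini-Hochberg method over all genes. The class rule and the fit were also run on simulated data. These had preset class shapes with little noise, and a gene's spread was the same on all arrays. They thus do not check whether hair germ arrays vary like the others. Promoters of 27025 genes were searched on both strands.

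Members, gene lists and tests were chosen with earlier results of these data known. Named were the 10 largest differences of each class, up to 4 members per process list in a class (2 where none was), up to 3 of the brightest per marker list, and the 5 smallest p values per contrast. Cell type markers not named with a finding were summed only. Alternatives were pseudocounts of 1 and 64, quantile normalization, median centring, 2 other filters, the mean of probe sets, a 3-fold threshold, no trend, and leaving out arrays.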

Additional observations from a re-analysis of the deposited data

Results flagged for a closer look

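In 3 genes the P56 deviation of hair germ passed the test against the other populations. Hair germ has 1 array per day, the spread comes from bulge and dermal papilla alone, and 0 genes passed with a pseudocount of 1, with no filter, or without Bulge P43, Dermal Papilla P43 or Dermal Papilla P56. Iigp1 deviated at P56 by -3.52 log2 units more than the mean of bulge and dermal papilla, Stfa3 by -4.99 and Ctsz by 3.60 (limma, adjusted p = 0.0308, 0.0445 and 0.0445). Within hair germ, other Ctsz probe sets deviated by 1.769 and 1.785 against 3.277 for the one used. The P56 hair germ array also had the lowest Gapdh 3'/5' ratio of the 9, 2.97, and its part in these values was not tested.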

How the results depend on the processing

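Hair germ had 1 array per day, so none of its arrays could be left out, and the classes carry no error. Rising, falling, peak and dip counts became 219, 105, 48 and 33 with a pseudocount of 64, and 110, 43, 25 and 18 with a 3-fold threshold. Median centring gave 195 rising, 556 falling and 83 peak genes, and quantile normalization 296 rising and 360 falling. The 226 falling genes all remained falling under median centring, and 291 of 471 remained rising under quantile normalization. Interaction calls (limma) for P69 minus P43 were 4 with a pseudocount of 64 and ranged from 0 to 427 when a bulge or dermal papilla array was left out. Those for the P56 deviation were 0 with a pseudocount of 1, 7 with 64, 1 with quantile normalization, 13 with median centring, 0 with no filter, 1 with no trend, and from 0 to 168 when an array was left out. List medians less that of all genes moved to -0.81 (DNA replication, P69 minus P43) and -0.40 (wound keratins, P56 deviation) with a pseudocount of 64. With quantile normalization they moved to 0.21 (immediate early) and 0.06 (ribosomal protein) for P69 minus P43, and that of ribosomal protein for the P56 deviation reversed to 0.067 from -0.384. The other list medians, and the dermal papilla medians of the classes, moved by less than the residual SD of the fit, 0.27 log2 units. Median centring cannot move a list median taken less that of all genes. List medians not reduced in this way shift with that of all genes, for P69 minus P43 from 0.128 to -0.153. Causes were not tested. None of 112 named class members changed sign under any alternative, though pseudocounts and the 3-fold threshold cannot change the sign of such genes. Of the 112, 26 left their class with a pseudocount of 64 and 52 with a 3-fold threshold. Other probe sets of a gene could differ in sign, as given above. Day was shared across populations in the fit. No analysis paired by mouse was possible, because each group holds 1 array and the use of shared mice is not given.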
